A study of Homo sapiens with 4 samples.

Results

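Lysosomal genes were followed in mRNA sequencing of NTERA2 cells, which are human embryonal carcinoma cells with the transcription programme of pluripotent cells. The group holds 32 genes of the 26364 in the count tables, given as a list of lysosomal enzymes, their cofactors, membrane proteins of the organelle, the transcription factor TFEB and the autophagy receptor SQSTM1. All 32 were present and all 32 passed the filter on low counts. The sh60 group had 2 libraries (replicates 1 and 2), in which BEND3, a chromatin-bound repressor, is read as the target of a short hairpin RNA. The LacZ group had 2 libraries (replicates 1 and 3) and is read as its control. The labels spell out neither reading, and give both groups the same line, medium and serum. They describe the line as a lung carcinoma of embryonic stem cell origin, although NTERA2 is an embryonal carcinoma line. No time of harvest, delivery method or statement on separate cultures is given in the sources used here. The p-values therefore measure only the spread between these libraries, estimated largely over all genes together, and this spread may be technical.

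The libraries held between 30338285 and 44788461 counts, so a single count was worth 0.0221 to 0.0333 CPM (counts scaled to a TMM-adjusted library of fixed size). BEND3 measured 55.7 and 52.0 CPM in sh60 replicates 1 and 2, against 68.8 and 79.3 CPM in LacZ replicates 1 and 3, a level 0.727 of that in LacZ (edgeR adjusted p = 0.00168), and this call was lost without LacZ replicate 3 (adjusted p = 0.153). All 9 NTERA2 markers checked, POU5F1, SOX2, NANOG and LIN28A among them, were above 80 CPM in every library. Of the 9, DNMT3B, TDGF1, LIN28B and NANOG were lower in sh60 (log2 fold change -0.72, -0.49, -0.45 and -0.25), SOX2 was higher (0.31) and 4 did not pass. Without LacZ replicate 3 the calls of TDGF1, LIN28B, NANOG and SOX2 were lost, and those of NANOG and SOX2 also without LacZ replicate 1. Of 12 macrophage and blood markers, whose cells are rich in lysosomes, 10 were under 1 CPM in every library, PTPRC and HBB were at 0 counts in every library, and the sum over the list was 5.46 and 5.59 CPM in sh60 and 6.05 and 6.45 CPM in LacZ. Of the 6 that were tested (single markers are named here after their values were seen), CD163 and LYZ were higher and AIF1 lower in sh60, with the call of LYZ lost without LacZ replicate 1 or sh60 replicate 1 and that of AIF1 without sh60 replicate 2. The 10 fibroblast markers summed to 929 and 1093 CPM in sh60 and 544 and 447 CPM in LacZ. Of these, COL1A1, COL1A2, LUM and POSTN were higher in sh60 and THY1 and PDGFRA lower, the calls of this pair being lost without either LacZ library. FAP was at most 0.176 CPM in any library, and their part in the results below was not tested. In bulk RNA, fewer cells of a kind and less RNA per cell cannot be told apart.

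The lysosome breaks down proteins, glycans and lipids with hydrolases that work at acid pH. Most of these enzymes are tagged with mannose 6-phosphate and carried from the Golgi by receptors, and a proton pump, the V-ATPase, acidifies the lumen. TFEB and its relatives of the MiT family switch on many of the genes together by binding a motif known as the CLEAR element. Senescent cells, which stop dividing with high p21 (CDKN1A), are known for an enlarged lysosomal compartment, and the usual stain for them reads the activity of beta-galactosidase, the product of GLB1.

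More lysosomal genes were higher than lower in sh60, mostly by modest amounts. Of the 32, 14 rose, 1 fell and 17 did not pass edgeR's quasi-likelihood test at an adjusted p of 0.05. Across all 16040 genes tested, 28.8% passed, 15.8% as higher and 13% as lower. The share of lysosomal genes called higher was 43.8%. The median log2 fold change was 0.23 over the lysosomal genes, against -0.0042 over all tested genes. The genes that rose were SCARB2, LAMP1 and CD63 on the membrane, CTSZ, CTSB and CTSA among the proteases, FUCA1, MANBA and HEXA among the glycan enzymes, SMPD1, ASAH1 and PSAP in lipid breakdown, and TFEB and SQSTM1. CTSK fell. The median size of the change in the 15 called genes was 0.51 on the log2 scale, against 0.54 for all called genes. A log2 change of at least 1 in either direction was seen in 3 of the 15 (FUCA1, TFEB and CTSK), a share of 20%, against 20.2% of all called genes. In 23 of the 32 genes both sh60 libraries lay above both LacZ libraries and in 4 both lay below, where the shares over all tested genes were 32.1% and 32.3%.

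**Figure D1:**
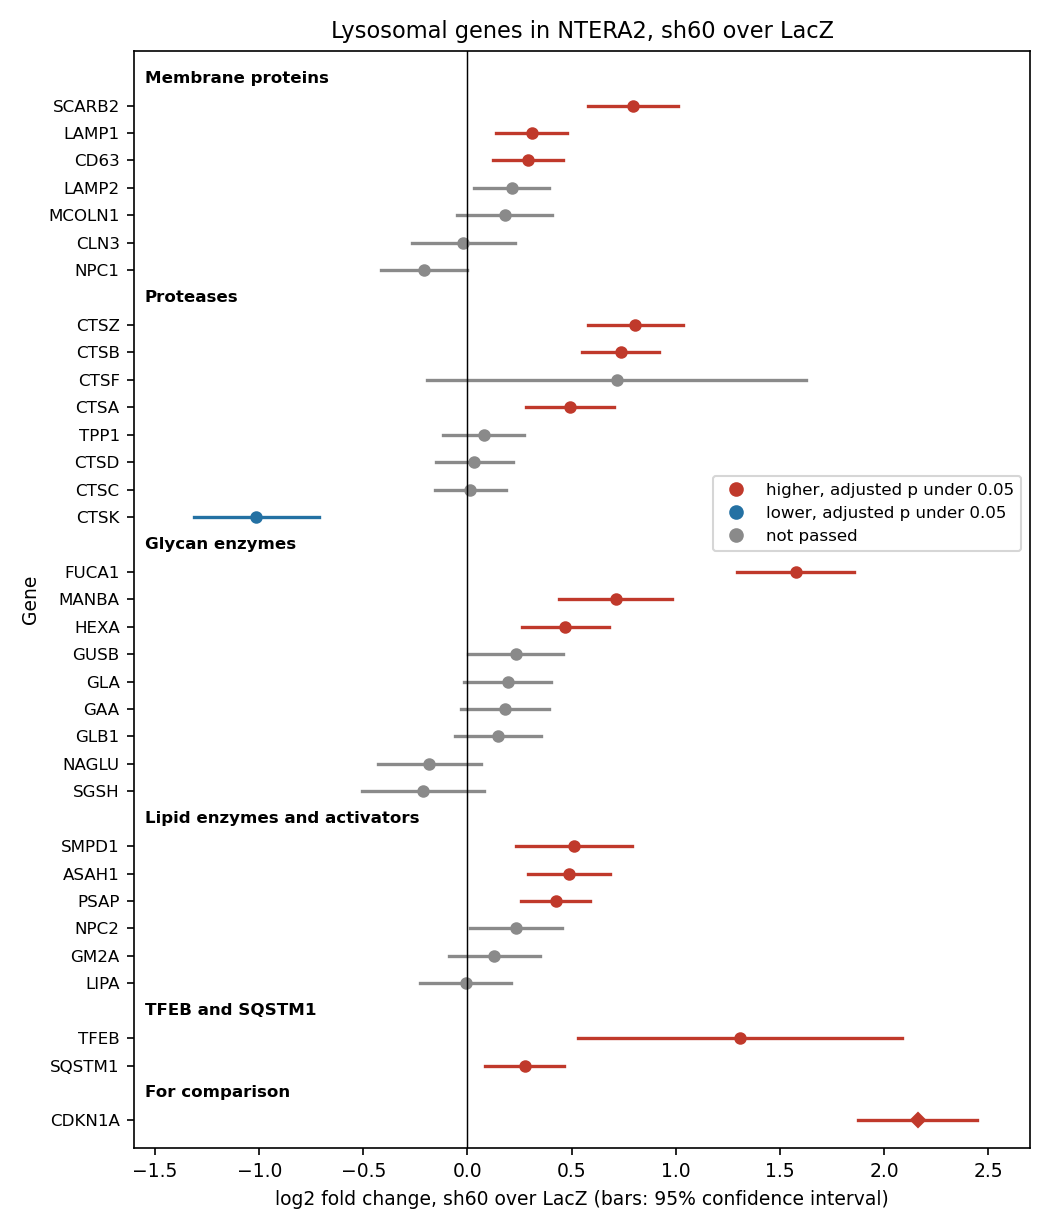
Log2 fold change of each lysosomal gene in sh60 over LacZ (x axis), grouped by role, with CDKN1A for comparison. Points are edgeR estimates, bars are 95% confidence intervals, and colours mark the 14 genes higher, the 1 lower and the 17 that did not pass at an adjusted p of 0.05.

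With either LacZ library left out, fewer lysosomal genes were called higher, and so were fewer of all tested genes. Leaving out sh60 replicate 1 gave more of both. A fit without 1 library takes its spread from the other group alone, and the sh60 pair differed more than the LacZ pair. Calls gained or lost in such fits therefore mix a change of spread with a change of the estimate. The median log2 fold change of the lysosomal genes was 0.285 without LacZ replicate 1 and 0.225 without LacZ replicate 3. With every library it was 0.232. Without LacZ replicate 3, 7 lysosomal genes were higher (21.9%, against 8.04% of all tested genes). Without LacZ replicate 1, 10 were higher (31.2%, against 11.1%). The 32 genes summed to 2530 and 2714 CPM in sh60 replicates 1 and 2, against 2164 and 2105 CPM in LacZ replicates 1 and 3, with the sums set mostly by a few abundant members.

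Promoter sequences of members were read from RefSeq (GRCh38.p14; 250 bases before to 50 after each start), where 23 of the 32 genes had an entry. The windows were searched for CACGTG, the core of the CLEAR element, and for the longer TCACGTGA, which contains it. Both read the same on either strand. A gene counted if any of its windows matched, and the comparison took every gene with an entry, whether or not it was tested here. CACGTG was in a window of 8 of the 23 genes (34.8%), against 8.78% of all 27305 genes with an entry, and TCACGTGA in 5 of the 23 (21.7%), against 1.18%. The element is known from lysosomal genes, so these shares describe the list and test nothing. The 5 genes were LAMP1, CTSA, MCOLN1, GAA and CLN3. They are shown because they carry the longer motif, while the largest rises among the members with an entry, in FUCA1, TFEB, CTSZ and SCARB2, came from genes whose windows held neither string. Of the 5, LAMP1 and CTSA rose and MCOLN1, GAA and CLN3 did not pass. Of the 15 genes with no CACGTG in the window, 6 rose and 9 did not pass. A match is only a string of letters, and none says nothing of binding elsewhere. The stretches below lie upstream of the start, all on the + strand, at chr13:113297035-113297228 for LAMP1, chr20:45891281-45891327 for CTSA, chr19:7522571-7522623 for MCOLN1 and chr17:80101493-80101567 for GAA, with CACGTG in capitals. In LAMP1 the core occurs 5 times in this stretch, and TCACGTGA occurs once there and once more across the start itself. In CLN3 TCACGTGA lies across the start and is not printed.
LAMP1: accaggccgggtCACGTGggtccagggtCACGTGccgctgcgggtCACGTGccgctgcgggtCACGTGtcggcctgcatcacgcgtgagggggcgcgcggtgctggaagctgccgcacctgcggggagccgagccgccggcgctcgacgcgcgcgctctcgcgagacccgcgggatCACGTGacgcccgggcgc
CTSA: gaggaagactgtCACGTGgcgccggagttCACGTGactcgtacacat
MCOLN1: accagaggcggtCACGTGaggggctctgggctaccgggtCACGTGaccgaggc
GAA: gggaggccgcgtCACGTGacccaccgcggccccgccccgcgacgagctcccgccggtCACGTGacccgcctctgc

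Among the 7 membrane proteins, 3 rose and 4 did not pass, with a median log2 fold change of 0.21. SCARB2 (chromosome 4, 77079892 to 77135052, hg19) encodes LIMP-2, which carries the enzyme glucocerebrosidase to the lysosome. It measured 60.4 and 52.7 CPM in sh60 replicates 1 and 2, against 33.6 and 31.5 CPM in LacZ replicates 1 and 3. Both sh60 libraries lay above both LacZ libraries, as in 32.1% of all tested genes. The rise was 1.74-fold (log2 fold change 0.80 with an SE of 0.103, edgeR adjusted p = 1.40e-05). LAMP1 (chromosome 13, 113951469 to 113977741) encodes one of the most abundant glycoproteins of the lysosomal membrane. Its levels were 268 and 283 CPM in sh60 and 230.0 and 215 CPM in LacZ, a 1.24-fold rise (edgeR adjusted p = 0.00782). CD63, a tetraspanin of late endosomes and lysosomes, had 243 and 259 CPM in sh60 and 206 and 204 CPM in LacZ, a 1.22-fold rise (edgeR adjusted p = 0.0106). Both small rises lay outside the spread of the replicates, but neither was called once a single LacZ library was left (edgeR adjusted p of 0.0861 and 0.296 for LAMP1 and of 0.175 and 0.244 for CD63, without LacZ replicate 1 and without LacZ replicate 3).

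LAMP2, the partner of LAMP1 that also serves chaperone-mediated autophagy, measured 114 and 112 CPM in sh60 and 101.0 and 94.5 CPM in LacZ. Both sh60 libraries lay above both LacZ libraries, as in 32.1% of all tested genes, and LAMP2 did not pass (log2 fold change 0.21, edgeR adjusted p = 0.0717). It was called higher with library totals as the scaling (log2 fold change 0.240, edgeR adjusted p = 0.0420). Without sh60 replicate 1 and without sh60 replicate 2 its log2 fold change was 0.199 and 0.227. MCOLN1, a calcium channel of the lysosome, averaged 23.0 ± 0.784 CPM in sh60 and 20.4 ± 0.778 CPM in LacZ (SD, n = 2 each) and did not pass, its log2 fold change having a 95% confidence interval from -0.05 to 0.41. NPC1, which exports cholesterol from the lysosome, averaged 42.7 ± 2.73 CPM in sh60 and 49.3 ± 1.51 CPM in LacZ (SD, n = 2 each). Its log2 fold change of -0.21 did not pass (edgeR adjusted p = 0.124), but NPC1 was called lower once sh60 replicate 1 was left out (0.0131) or trends of GC content and length were removed (0.0270). CLN3, a membrane protein mutated in a childhood neurodegenerative disease, had 20.7 and 23.6 CPM in sh60 and 20.8 and 24.4 CPM in LacZ, which overlap.

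Of the 8 proteases, 3 rose, CTSK fell and 4 did not pass, with a median log2 fold change of 0.28. CTSZ (chromosome 20, 57570242 to 57582309), a cathepsin that trims single residues from the carboxyl end, had 54.0 and 59.6 CPM in sh60 replicates 1 and 2, against 35.5 and 29.4 CPM in LacZ replicates 1 and 3. Its rise was 1.75-fold (log2 fold change 0.80 with an SE of 0.109; edgeR adjusted p = 2.21e-05). CTSB (chromosome 8, 11700034 to 11725646), an abundant cysteine protease, had 186 and 203 CPM in sh60 and 123 and 110.0 CPM in LacZ, a 1.67-fold rise (log2 fold change 0.74 with an SE of 0.0882; edgeR adjusted p = 6.28e-06). CTSA, which trims proteins and also protects beta-galactosidase and neuraminidase in a complex, had 49.3 and 54.0 CPM in sh60 and 35.2 and 38.4 CPM in LacZ, a 1.41-fold rise (edgeR adjusted p = 0.00116). CTSA lost its call when LacZ replicate 1 was left out (edgeR adjusted p = 0.0676).

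CTSK (chromosome 1, 150768684 to 150780917), a cathepsin best known for digesting collagen in bone, was the 1 member that fell. It measured 5.52 and 5.85 CPM in sh60 replicates 1 and 2, against 10.6 and 12.5 CPM in LacZ replicates 1 and 3, and was 2.02-fold lower in sh60 (log2 fold change -1.01 with an SE of 0.143; edgeR adjusted p = 3.74e-05). CTSD, the main aspartic protease of the lysosome, had 186 and 219 CPM in sh60 and 198 and 197 CPM in LacZ. Here the sh60 libraries lay on either side of both LacZ libraries, and the log2 fold change had a 95% confidence interval from -0.15 to 0.22. CTSC, which activates serine proteases of immune cells, had 177 and 178 CPM in sh60 and 170.3 and 182 CPM in LacZ, with an interval of -0.16 to 0.18. TPP1, a tripeptidyl peptidase, averaged 62.6 ± 3.79 CPM in sh60 and 59.4 ± 0.690 CPM in LacZ (SD, n = 2 each) and did not pass (edgeR adjusted p = 0.581). CTSF was close to the limit of detection, with 16 and 31 counts in sh60 and 19 and 7 counts in LacZ. CTSF did not pass, and its 95% confidence interval of the log2 fold change was wide, from -0.19 to 1.63.

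**Figure D2:**
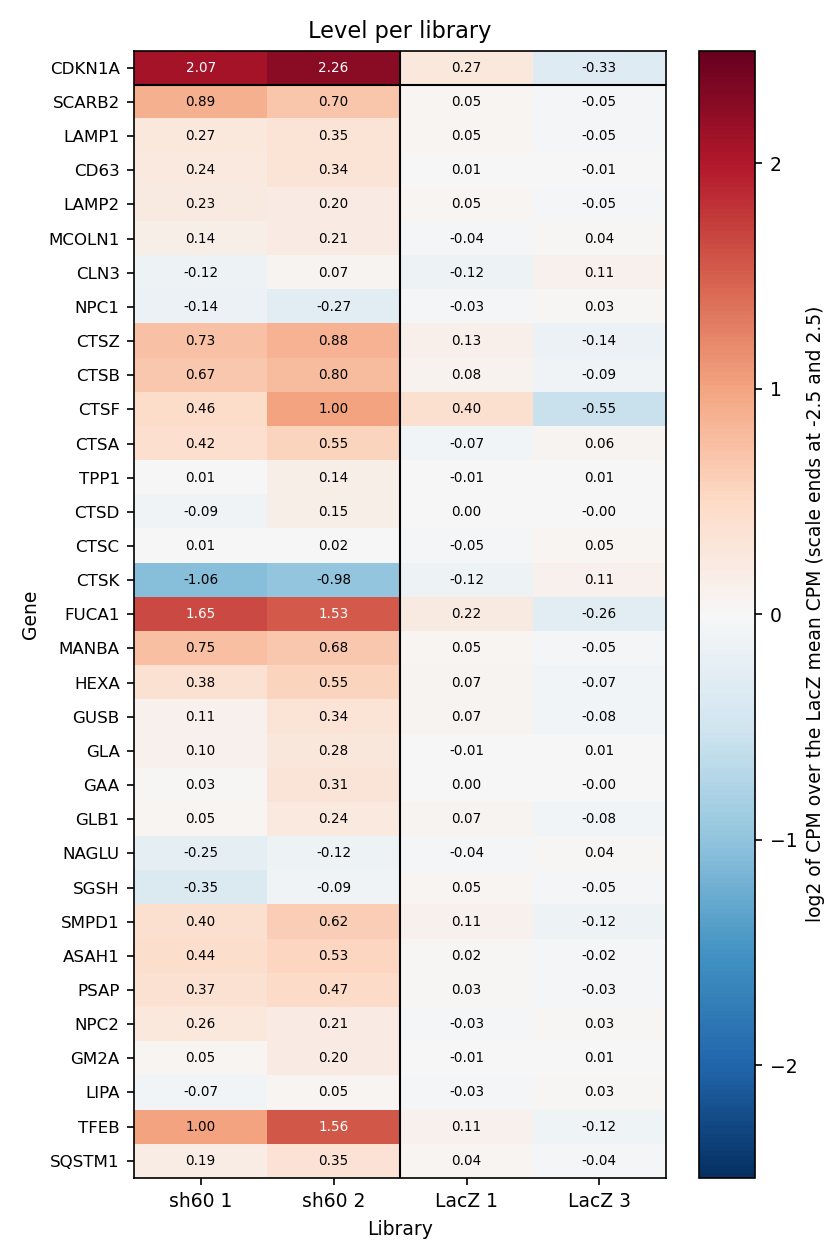
Level of CDKN1A and of each lysosomal gene in the 4 libraries (columns), as the log2 of its CPM over its mean CPM in LacZ (colour and printed value). CDKN1A is raised most in both sh60 columns, followed by FUCA1 and TFEB, CTSK is lowered most in both, and in LacZ replicate 1 CDKN1A and FUCA1 are above LacZ replicate 3.

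Among the 9 enzymes of glycan breakdown, 3 rose and 6 did not pass, with a median log2 fold change of 0.19. FUCA1 (chromosome 1, 24171572 to 24194859) encodes the fucosidase that removes fucose from glycoproteins, and is also known as a target of p53. It had the largest fold rise of the 32 genes. Its levels were 40.1 and 36.9 CPM in sh60 replicates 1 and 2, against 14.9 and 10.7 CPM in LacZ replicates 1 and 3. The rise was 2.98-fold (95% confidence interval 2.46 to 3.62, log2 fold change 1.58 with an SE of 0.133, edgeR adjusted p = 1.32e-07). MANBA, the lysosomal beta-mannosidase, had 13.8 and 13.1 CPM in sh60 and 8.48 and 7.88 CPM in LacZ, a 1.64-fold rise (edgeR adjusted p = 0.000416). HEXA, the alpha subunit of hexosaminidase A whose loss causes Tay-Sachs disease, had 58.4 and 65.8 CPM in sh60 and 46.9 and 42.7 CPM in LacZ, a 1.38-fold rise (edgeR adjusted p = 0.00163). HEXA lost its call when LacZ replicate 3 was left out (edgeR adjusted p = 0.102).

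GLB1 (chromosome 3, 33038100 to 33138694), whose beta-galactosidase activity is the usual stain for senescence, did not pass. It measured 66.7 and 76.0 CPM in sh60 replicates 1 and 2, against 67.9 and 61.1 CPM in LacZ replicates 1 and 3, so that sh60 replicate 1 lay between the LacZ libraries. The log2 fold change was 0.15 (SE 0.0981, edgeR adjusted p = 0.293), and its 95% confidence interval of -0.06 to 0.35 corresponds to a level between 0.960 and 1.28 times that in LacZ. Without sh60 replicate 1 GLB1 was called at a log2 fold change of 0.24 (edgeR adjusted p = 0.0183). An 83-base stretch of GLB1 exon overlaps TMPPE on the same strand, and reads there were assigned to neither gene. GLA, the alpha-galactosidase lost in Fabry disease, GAA, the acid alpha-glucosidase lost in Pompe disease, and GUSB, the beta-glucuronidase, had log2 fold changes of 0.19, 0.18 and 0.23 and did not pass (edgeR adjusted p = 0.162, 0.195 and 0.125). Across the 32 lysosomal genes, sh60 replicate 2 lay above sh60 replicate 1 in 26, these 3 among them, a count not set against all tested genes. In all 3 both sh60 libraries were above both LacZ libraries, as in 32.1% of all tested genes, and sh60 replicate 2 was the highest. Without sh60 replicate 1 all 3 were called (edgeR adjusted p = 0.0107 for GLA, 0.00120 for GAA and 0.00668 for GUSB). NAGLU and SGSH, which remove N-acetylglucosamine and sulfate in the breakdown of heparan sulfate, averaged 14.7 ± 0.927 and 8.79 ± 1.13 CPM in sh60 and 16.8 ± 0.611 and 10.2 ± 0.468 CPM in LacZ (SD, n = 2 each). Neither passed (log2 fold change -0.18 and -0.21).

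**Figure D3:**
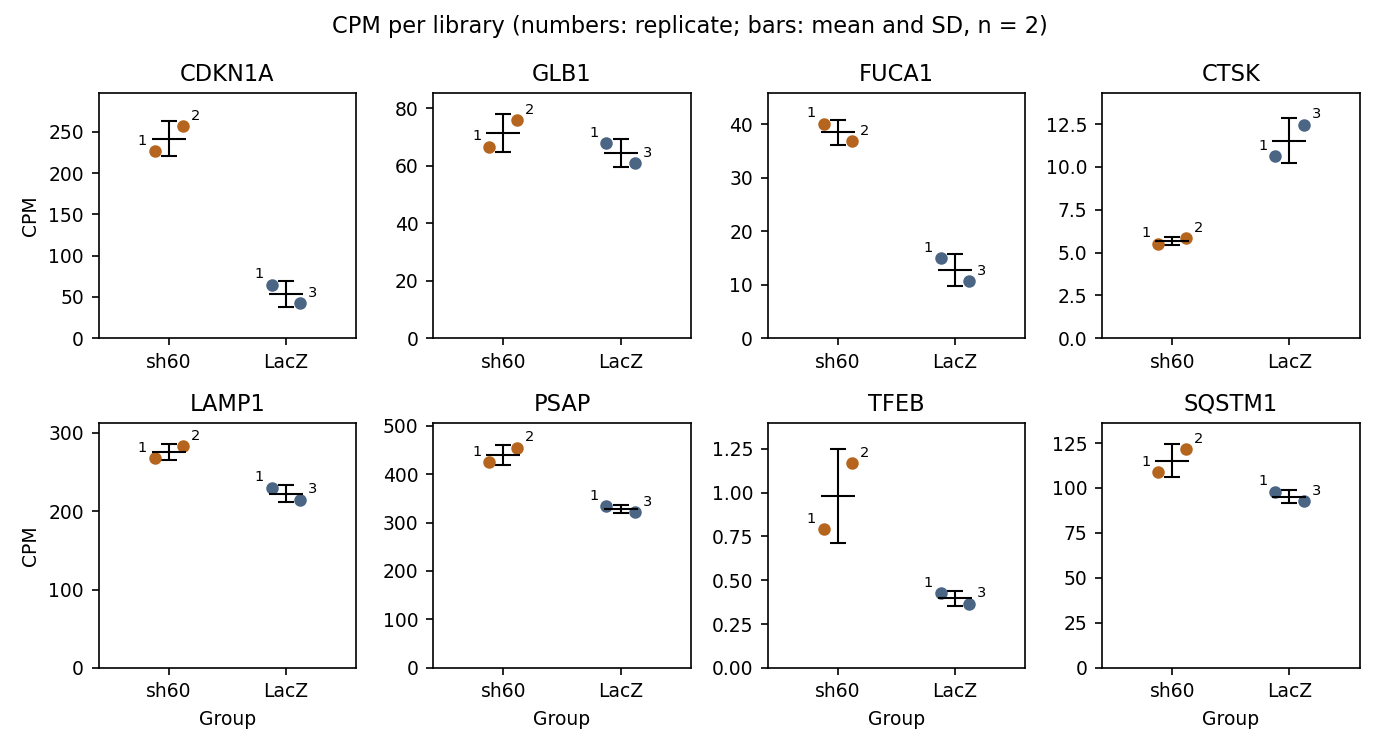
CPM in each library for CDKN1A, 6 lysosomal genes that are described in full and the beta-galactosidase gene GLB1, with each group's mean and SD (n = 2). The sh60 libraries lie above the LacZ libraries in CDKN1A, FUCA1, LAMP1, PSAP, TFEB and SQSTM1, below them in CTSK, and overlap them in GLB1.

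Of the 6 genes of lipid breakdown, 3 rose and 3 did not pass, with a median log2 fold change of 0.33. PSAP (chromosome 10, 73576055 to 73611082), the precursor of 4 saposins that present sphingolipids to their enzymes, was the most abundant member per length. It measured 425 and 455 CPM in sh60 replicates 1 and 2, against 334 and 322 CPM in LacZ replicates 1 and 3, a 1.34-fold rise (log2 fold change 0.42 with an SE of 0.0790; edgeR adjusted p = 0.000542). ASAH1 (chromosome 8, 17913925 to 17942507), the acid ceramidase, had 60.8 and 64.7 CPM in sh60 and 45.4 and 44.0 CPM in LacZ, a 1.40-fold rise (edgeR adjusted p = 0.000727). SMPD1, the acid sphingomyelinase that releases ceramide, had 14.1 and 16.4 CPM in sh60 and 11.6 and 9.81 CPM in LacZ, a 1.42-fold rise (edgeR adjusted p = 0.00716). The enzyme that makes ceramide and the enzyme that breaks it down thus both rose. Without LacZ replicate 3 the calls of PSAP and SMPD1 were lost (edgeR adjusted p = 0.0530 and 0.130), while that of ASAH1 held in every alternative, with an adjusted p of at most 0.0495. NPC2, the soluble partner of NPC1, averaged 26.1 ± 0.623 CPM in sh60 and 22.3 ± 0.712 CPM in LacZ (SD, n = 2 each) and did not pass (log2 fold change 0.23, edgeR adjusted p = 0.110). GM2A, the activator that lifts GM2 ganglioside for HEXA, had a log2 fold change of 0.13 (95% confidence interval -0.09 to 0.35). LIPA, the acid lipase, had 27.7 and 30.03 CPM in sh60 and 28.5 and 29.6 CPM in LacZ, with overlapping groups and an interval of -0.23 to 0.21.

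TFEB (chromosome 6, 41651716 to 41703997), the transcription factor of the network, rose but was scarce. It had 27 and 53 counts in sh60 replicates 1 and 2, against 18 and 11 counts in LacZ replicates 1 and 3, or 0.793 and 1.17 CPM against 0.427 and 0.366 CPM. The rise was 2.48-fold with a wide 95% confidence interval of 1.44 to 4.25 (log2 fold change 1.31 with an SE of 0.370; edgeR adjusted p = 0.0126). It was not called by DESeq2 (adjusted p = 0.107), without LacZ replicate 3 (edgeR adjusted p = 0.0510) or without sh60 replicate 2 (0.171). The MiT relatives, named here after their values were seen, differed in level. TFE3 had 71.0 and 75.4 CPM in sh60 and 66.6 and 71.3 CPM in LacZ and did not pass (log2 fold change 0.09, edgeR adjusted p = 0.525). MITF averaged 3.01 ± 0.191 CPM in sh60 and 1.77 ± 0.523 CPM in LacZ, and TFEC 0.783 ± 0.139 CPM in sh60 and 0.295 ± 0.0872 CPM in LacZ (SD, n = 2 each). Both rose (edgeR adjusted p = 0.0209 and 0.0190), but neither was called without LacZ replicate 3 (0.220 and 0.141) or by DESeq2 (0.0944 and 0.135). Per length of exon, TFE3 stood at 19.99 RPKM in LacZ, MITF at 0.290, TFEB at 0.145 and TFEC at 0.0431.

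SQSTM1 (chromosome 5, 179233388 to 179265077) encodes p62, which binds ubiquitinated cargo and is itself degraded with it by autophagy. It measured 109 and 122 CPM in sh60 replicates 1 and 2, against 98.0 and 92.5 CPM in LacZ replicates 1 and 3. The rise was 1.21-fold (log2 fold change 0.27 with an SE of 0.0896, edgeR adjusted p = 0.0279). Both sh60 libraries lay above both LacZ libraries, as in 32.1% of all tested genes. The call was missing with either LacZ library left out (log2 fold change 0.321 without replicate 1 and 0.234 without replicate 3).

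Levels between genes were compared as RPKM, counts per kilobase of exon, scaled to library size in the same way as CPM. In sh60 the most abundant members were PSAP at 155 RPKM, CD63 at 122, LAMP1 at 108 and CTSD at 95.3. In LacZ they were PSAP at 116 RPKM, CD63 at 99.7, CTSD at 93.1 and LAMP1 at 87.6. LAMP1 and CTSD stood in opposite order in the group means, and CTSD did not pass the test between the groups. The scarcest were CTSF and TFEB, at 0.287 and 0.359 RPKM in sh60 and 0.170 and 0.145 RPKM in LacZ. The LacZ median was 14.2 RPKM, against 5.56 RPKM over all tested genes, and 27 of the 32 members were above that median. FUCA1 stood at 18.2 RPKM in sh60 and 6.04 RPKM in LacZ.

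**Figure D4:**
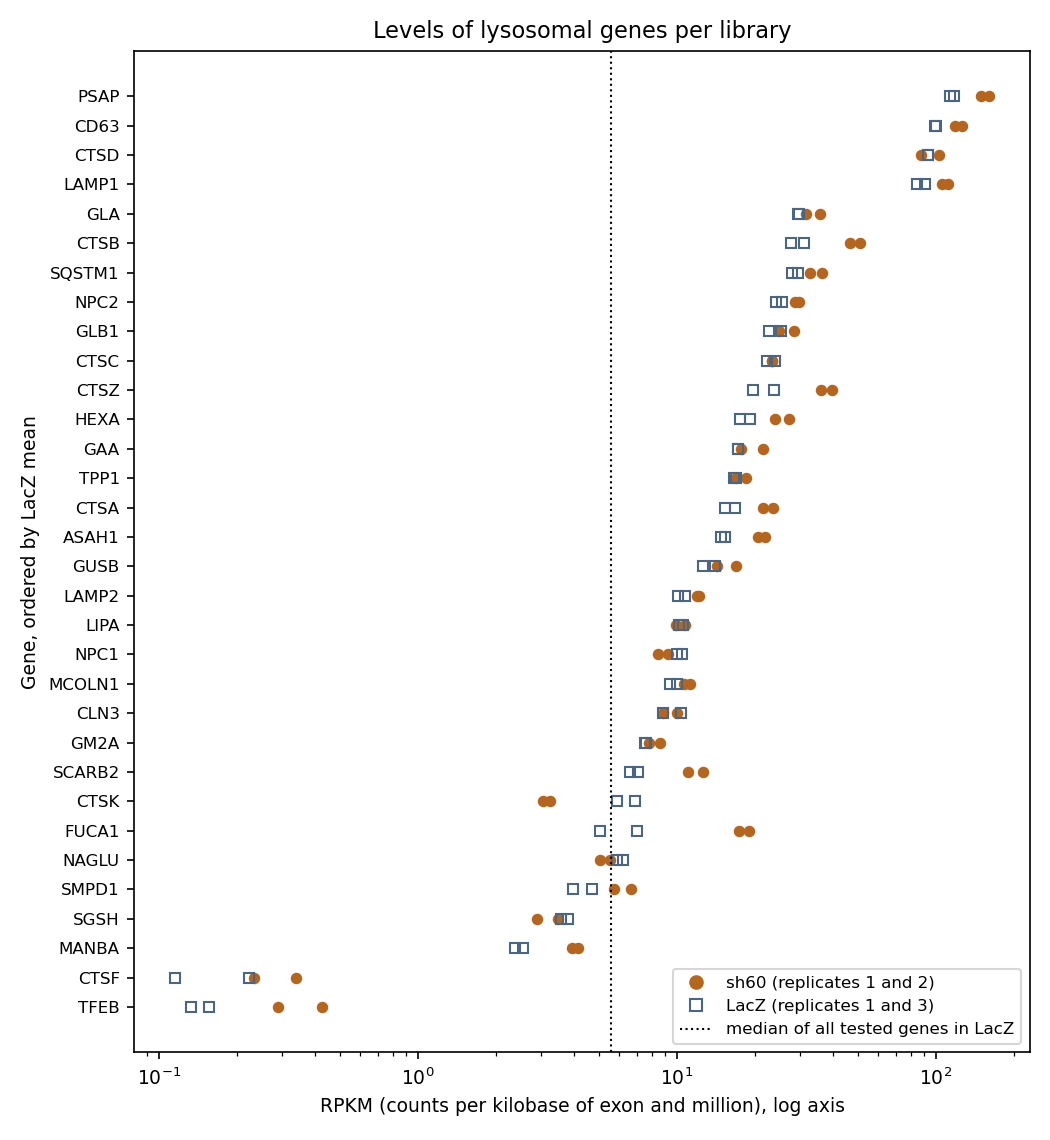
RPKM of each lysosomal gene in every library on a log axis, ordered by the LacZ mean, with sh60 as filled circles and LacZ as open squares. The members span from 0.145 to 116 RPKM in LacZ means, and the dotted line marks the median of all tested genes at 5.56 RPKM.

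The lysosomal genes were set beside CDKN1A, the cell cycle inhibitor that is high in senescent cells. CDKN1A measured 226 and 257 CPM in sh60 replicates 1 and 2, against 64.8 and 42.8 CPM in LacZ replicates 1 and 3, and its log2 fold change of 2.16 was larger than that of each of the 14 lysosomal genes that rose. Its 95% confidence interval, 1.88 to 2.45, lay above those of 13 of them and overlapped only that of the scarce TFEB, 0.53 to 2.09. Of those 14, 7 had a log2 fold change under 0.5, as had 38.9% of all genes called higher. Within the LacZ group CDKN1A was higher in replicate 1 than in replicate 3, and so were 13 of the 14 rising lysosomal genes, CTSA being the exception. The same held for 75.5% of all genes called higher. CTSK, which fell, was lower in LacZ replicate 1 than in LacZ replicate 3. With 4 libraries no correlation is given.

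Of 32 tested genes linked with senescence, 22 rose and 5 fell, with a median log2 fold change of 0.70. The shares higher and lower were 68.8% and 15.6%, against 15.8% and 13% of all tested genes. The list holds CDKN1A itself, FUCA1 and GLB1, and was drawn up with the rise of several members known. IGFBP3, a secreted binder of insulin-like growth factors, rose 5.16-fold and TNFRSF10D, a decoy death receptor, 2.90-fold. GDF15, a secreted stress cytokine, rose 3.49-fold. The genes that fell, named after their values were seen, were MKI67, LMNB1, HMGB2, IGFBP4 and MMP1. MMP1 had the lowest log2 fold change of the list, -1.56, and IGFBP4 went opposite to IGFBP3. The list mixes genes read by a rise with genes read by a fall, so its counts and median hold no common direction. LMNB1, the nuclear lamin whose loss is used as a sign of senescence, averaged 286 ± 32.3 CPM in sh60 and 403 ± 8.03 CPM in LacZ (SD, n = 2 each), and MKI67, a marker of dividing cells, 348 ± 36.1 CPM in sh60 and 524 ± 19.95 CPM in LacZ. Both fell (edgeR adjusted p = 0.000296 and 4.42e-05). The call of HMGB2 was lost without either LacZ library and that of MMP1 without LacZ replicate 1, sh60 replicate 1 or sh60 replicate 2. The lists were chosen with results of these data known, so these counts are a description.

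Lysosomal hydrolases outside the 32 genes also rose more often than they fell. Of 39 tested, 15 rose (38.5%), 1 fell (2.56%) and 23 did not pass, with a median log2 fold change of 0.22. Over all tested genes 15.8% were higher and 13% lower. IDS, the iduronate sulfatase lost in Hunter syndrome, had 112 and 109.6 CPM in sh60 and 70.3 and 58.8 CPM in LacZ, a 1.72-fold rise. DPP7, a dipeptidyl peptidase, rose 2.04-fold and CTSL, a cysteine cathepsin, 1.62-fold. Fewer hydrolases rose without LacZ replicate 3 and more without sh60 replicate 1, and the same held for all tested genes.

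Subunits of the V-ATPase, the proton pump, also rose more often than they fell. Of 24 tested, 10 rose (41.7%), 1 fell (4.17%) and 13 did not pass, with a median log2 fold change of 0.25. The shares over all tested genes were 15.8% higher and 13% lower. ATP6V1D, ATP6V1B2, ATP6V1C1 and ATP6V1E1, all of the peripheral part that hydrolyses ATP, rose 1.57-, 1.47-, 1.54- and 1.504-fold (edgeR adjusted p = 3.47e-05, 6.87e-05, 9.53e-05 and 0.000130). ATP6V1D measured 75.5 and 74.6 CPM in sh60 and 46.5 and 48.8 CPM in LacZ. ATP6V0D1, a subunit of the membrane part named after its value was seen, fell to 38.9 ± 4.73 CPM in sh60, against 54.0 ± 1.52 CPM in LacZ (SD, n = 2 each; edgeR adjusted p = 0.00224), a call lost without LacZ replicate 3 (0.0568). Fewer subunits rose without LacZ replicate 1 and without LacZ replicate 3, as did fewer of all tested genes.

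Other proteins of the lysosomal membrane moved in both directions. Of 27 tested, 7 rose (25.9%), 3 fell (11.1%) and 17 did not pass, with a median log2 fold change of 0.15. Over all tested genes 15.8% were higher and 13% lower, so the share that fell was no larger than elsewhere. SLC17A5, which exports sialic acid, had 17.5 and 18.5 CPM in sh60 and 10.6 and 9.98 CPM in LacZ, a 1.75-fold rise, and OSTM1, the partner of the chloride transporter CLCN7, rose 1.56-fold. LAPTM5, a protein best known from blood cells, was 2.64-fold lower in sh60, with 3.47 and 3.12 CPM in sh60 and 9.92 and 7.29 CPM in LacZ. MCOLN3, a channel related to MCOLN1, was 2.30-fold lower in sh60. LAPTM4A, a relative of LAPTM5 named after its value was seen, averaged 219 ± 6.95 CPM in sh60 and 275 ± 3.11 CPM in LacZ (SD, n = 2 each) and fell (edgeR adjusted p = 0.00433), a call lost without either LacZ library. Without LacZ replicate 1 and without LacZ replicate 3, 3 of the 27 rose in each case, where 11.1% and 8.04% of all tested genes were higher.

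Of 25 genes that sort cargo to the lysosome, 7 rose and 0 fell by edgeR's quasi-likelihood test. The median log2 fold change was 0.12. Those 7 were 28% of the list, where 15.8% of all tested genes were higher. The share called in either direction, also 28%, was close to the 28.8% of all tested genes. At an unadjusted p under 0.05, 2 were lower, DESeq2 and limma-voom each called 0 lower, and 4 fell with trends of GC content and length removed. SORT1, the receptor sortilin, rose 1.84-fold, LYST, lost in Chediak-Higashi syndrome, 1.97-fold, and VPS35, of the retromer that returns receptors, 1.27-fold. M6PR, a mannose 6-phosphate receptor, had 439.9 and 421 CPM in sh60 and 338 and 341 CPM in LacZ, a 1.27-fold rise (edgeR adjusted p = 0.00272). Without LacZ replicate 1 and without LacZ replicate 3, 2 of the 25 rose in each case, where 11.1% and 8.04% of all tested genes were higher, and the calls of M6PR and VPS35 were lost in each case.

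In the list of nutrient sensing genes and MiT factors, 9 of 24 tested rose and 0 fell by edgeR's quasi-likelihood test. The median log2 fold change was 0.19. Those 9 were 37.5% of the list, where 15.8% of all tested genes were higher and 13% lower. At an unadjusted p under 0.05, 0 were lower, DESeq2 and limma-voom each called 0 lower, and 2 fell without sh60 replicate 2. The sestrins, which restrain mTORC1 and of which SESN1 and SESN2 are known p53 targets, rose together. SESN1 and SESN2 each rose 1.66-fold and SESN3 1.51-fold. RRAGD, a GTPase that tethers mTORC1 to the lysosome and a known target of the MiT factors, had 15.98 and 13.9 CPM in sh60 and 8.76 and 7.55 CPM in LacZ, a 1.82-fold rise (edgeR adjusted p = 0.000102). Without LacZ replicate 3, fewer members of this list rose, as did fewer of all tested genes.

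Of 38 tested autophagy genes, 14 rose (36.8%), 2 fell (5.26%) and 22 did not pass, with a median log2 fold change of 0.21. Among all tested genes 15.8% were higher and 13% lower. OPTN, a cargo receptor like SQSTM1, had 29.2 and 30.4 CPM in sh60 and 10.1 and 6.19 CPM in LacZ, a 3.60-fold rise (edgeR adjusted p = 1.57e-07), where SQSTM1 rose 1.21-fold. DRAM1, a lysosomal membrane protein induced by p53, had 42.1 and 38.4 CPM in sh60 and 15.5 and 18.6 CPM in LacZ, a 2.37-fold rise. TP53INP1, another p53 target, rose 2.54-fold and WIPI1, which acts at the forming autophagosome, 3.58-fold. ATG4C and ATG7, named after their values were seen, fell, but neither was called without either LacZ library. With either LacZ library left out fewer autophagy genes rose, as did fewer of all tested genes.

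**Figure D5:**
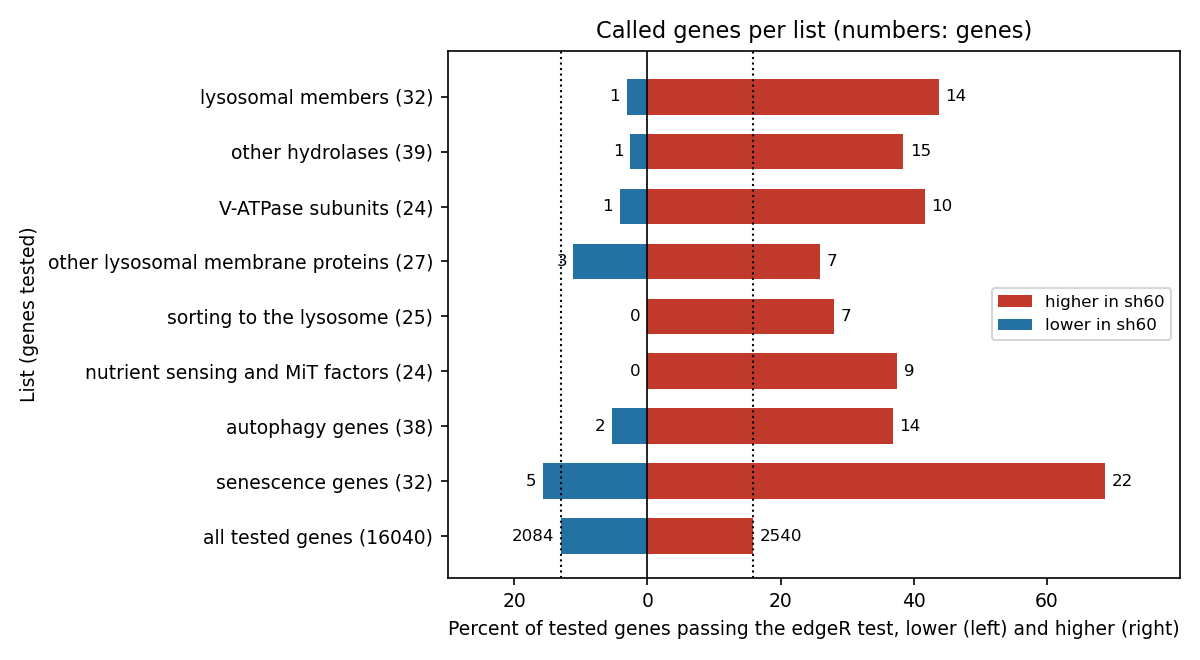
Percent of tested genes in each list that were higher (right) or lower (left) in sh60 by the edgeR test, with the number of genes at each bar and the number tested in brackets. Dotted lines mark the shares over all tested genes, 15.8% higher and 13% lower, and each list has a larger share of higher genes than that.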

How the data were processed

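The deposited values are raw counts of reads per gene, 1 table per library. Single-end stranded mRNA libraries were sequenced on a NovaSeq instrument, per the labels' protocols. The submitters' processing notes name STAR 2.7.6a and hg19, and the authors counted exon reads with featureCounts 2.0.0 at strand setting 2, per the file headers. No option for reads mapping to several places or genes was set, so such reads were left out by the tool's defaults. Exon lengths, an other kind of value, are those deposited in the same tables. Gene coordinates are hg19 as deposited, and promoter coordinates GRCh38.

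Groups and replicate numbers came from the library titles. Counts were fitted in edgeR 4.0.16 (R 4.3.3) by its quasi-likelihood method with TMM scaling, group as the only term and filterByExpr, which kept 16040 of 20937 genes with a count. P-values were adjusted by Benjamini-Hochberg over all genes tested, at 0.05. The common coefficient of variation was 7.33%, with 2 residual degrees of freedom. The median prior degrees of freedom were 15.9, so the spread used for a gene came mostly from the trend over all genes. Chi-square per degree of freedom was 16.8 for the sh60 pair and 6.19 for the LacZ pair, so no library repeats another. Alternatives were 3 other scalings, DESeq2 1.42.0, limma-voom (limma 3.58.1), edgeR's robust option, 2 other filters, glmTreat at a fold of 1.2, each library left out, and removal of trends of length and of GC content, the latter matched by symbol for 94.2% of tested genes.

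Members and lists were chosen with earlier results of these data known. All members could be named, with BEND3 and CDKN1A. From each other list up to 4 genes past the threshold with the smallest p were named. No set test was run. Some genes of the other lists are not reported here by name.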

Additional observations from a re-analysis of the deposited data

How the results depend on the processing

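Over the 14 alternatives, 7 of the 15 called lysosomal genes (SCARB2, CTSB, CTSZ, CTSK, MANBA, FUCA1 and ASAH1) kept direction and call, and 8 lost the call in at least 1. CDKN1A kept its call, with log2 fold changes of 1.90 to 2.502. Of the 17 genes that did not pass, 6 were called in some alternative and 11 in none. No paired analysis was possible because the groups share replicate number 1 only. A fit that leaves out a library has 1 library in that group, which is assumed to vary like the other group. That other group is the sh60 pair, at a chi-square per degree of freedom of 16.8, or the LacZ pair, at 6.19. A call gained or lost in such a fit therefore need not reflect the library left out.

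With a library left out, the counts higher in sh60 ran from 1331 to 2789 for all tested genes, 7 to 19 for the lysosomal genes, 7 to 23 for other hydrolases, 5 to 12 for V-ATPase subunits, 3 to 10 for other membrane proteins, 2 to 9 for sorting genes, 4 to 10 for nutrient sensing and MiT genes, and 9 to 19 for autophagy genes. The counts lower ran from 956 to 2697 for all tested genes, 1 to 2 for the lysosomal genes, 0 to 1 for other hydrolases and for V-ATPase subunits, 0 to 3 for sorting genes, 0 to 2 for nutrient sensing and MiT genes and for autophagy genes, and 3 to 5 for senescence genes.

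Against a fold of 1.2 (glmTreat), 1401 of 16040 tested genes were higher (8.73%) and 882 lower, with 9 of 32 lysosomal genes higher (28.1%). The other lists had 6 of 39 hydrolases, 6 of 24 V-ATPase subunits, 3 of 27 membrane proteins and 2 of 25 sorting genes higher. The sorting and membrane lists were thus near the share of all tested genes. Also higher were 5 of 24 nutrient sensing and MiT genes and 9 of 38 autophagy genes. Lower were 0 hydrolases, 0 V-ATPase subunits, 0 autophagy genes and 3 of 32 senescence genes. This setting asks for a larger change, so fewer calls follow from its construction. With GC and length trends removed, 3574 genes were lower in all, with 2 lysosomal, 5 membrane, 4 sorting and 1 nutrient sensing genes lower. In that setting 11 of 27 membrane genes were higher, where 18.8% of all tested genes were. Library totals and DESeq2 each gave 0 hydrolases and 1 autophagy gene lower, and upper-quartile scaling 1 sorting gene lower.

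Among genes that did not pass, the sign of the log2 fold change turned in CLN3 (-0.129 to 0.0967 with a library left out, 0.0077 with library totals, 0.0138 with both trends removed), CTSC (-0.0285 to 0.0621 with a library left out, -0.0161 with upper-quartile scaling, -0.0899 with both trends removed), CTSD (-0.0904 to 0.148 with a library left out) and LIPA (-0.0693 to 0.0483 with a library left out, 0.0182 with library totals). Apart from glmTreat, the cause was not tested. Depth limits TFEB and CTSF, which had at most 53 and 31 counts in a library.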

Other observations

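Of the enzymes that take heparan sulfate apart in sequence, some passed the test and some did not. Those named here were picked for this description after their values were seen. Besides IDS, IDUA, the iduronidase lost in Hurler syndrome, rose, with 2.702 and 4.31 CPM in sh60 replicates 1 and 2, against 2.07 and 1.03 CPM in LacZ replicates 1 and 3 (edgeR adjusted p = 0.00434). HGSNAT, which acetylates the terminal glucosamine, had 55.4 and 54.1 CPM in sh60 and 45.1 and 41.8 CPM in LacZ (edgeR adjusted p = 0.0139) and rose as well. SGSH and NAGLU, which act before and after HGSNAT, had log2 fold changes of -0.21 and -0.18 and did not pass, with 95% confidence intervals of -0.50 to 0.08 and -0.43 to 0.06. The call of IDUA was lost without sh60 replicate 2 (0.108), and that of HGSNAT without LacZ replicate 1 (0.102) or LacZ replicate 3 (0.326). The difference between these enzymes was not tested.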
